A study of Mus musculus with 16 samples.

Results

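The JNK kinases, or c-Jun N-terminal kinases, are encoded by the 3 genes Mapk8 (JNK1), Mapk9 (JNK2) and Mapk10 (JNK3), and their transcripts were followed here at the level of the gene and of every probe set. All probe sets that the platform annotation pairs with a member as its only gene symbol were taken, 70 in all, of 303629 probe sets with 1 symbol and 625534 on the array. Of these, 64 lay above the floor of 6.73 on the log2(intensity + 16) scale, which is the median of all probe sets. They were all 14 of Mapk8, all 23 of Mapk9 and 27 of the 33 of Mapk10, so the 3 genes stand among 14570 genes with a level. The remaining 6 Mapk10 probe sets averaged 4.45 to 6.65 and entered no level or test.

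The study measured total RNA on mouse exon arrays, which carry probe sets in many exons of a gene, in 4 groups of 4 arrays. The knockout groups were dKO brain and dKO spinal cord, from embryos with a double knockout of Nova1 and Nova2, whose protein products bind RNA in neurons and direct the choice of exons. The matching groups were WT brain and WT spinal cord, from wild type embryos, and all 4 groups were CD1 mice at age E18.5, with the brain taken whole. The sources used here do not say which exons the Nova alleles lack. The tissues were measured in bulk, so a change may arise in any of their cell types.

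JNKs are MAP kinases that respond to stress and cytokines and that also act during normal development of the nervous system, where they phosphorylate proteins of the neuronal cytoskeleton and take part in axon growth and in the migration and death of neurons. The kinases MKK4 and MKK7 phosphorylate them on a threonine and a tyrosine, scaffold proteins of the JIP family hold the cascade together, and dual-specificity phosphatases switch it off. Mapk8 and Mapk9 are expressed in most tissues and Mapk10 mainly in neurons, with some in heart and testis. Transcripts of Mapk8 and Mapk9 can include either of a pair of mutually exclusive exons that code for part of the kinase domain and alter which substrates are bound, and Mapk9 has been described as a splicing target of Nova. A probe set is given below by its identifier, since its place in the gene was not used here.

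The regions around the annotated start sites are shown because Mapk8 and Mapk10 levels differed together between the tissues and Mapk9 followed another pattern, as described below. Each sequence runs 5′ to 3′ from 250 bases before to 50 bases after the start, from RefSeq on build GRCm38.p6, and capitals mark the cyclic AMP response element TGACGTCA. All 3 genes matched the RefSeq table by symbol. Mapk8 lies on the minus strand at chr14:33447109-33447408, Mapk9 on the plus strand at chr11:49846501-49846800 and Mapk10 on the minus strand at chr5:103211285-103211584.
Mapk8: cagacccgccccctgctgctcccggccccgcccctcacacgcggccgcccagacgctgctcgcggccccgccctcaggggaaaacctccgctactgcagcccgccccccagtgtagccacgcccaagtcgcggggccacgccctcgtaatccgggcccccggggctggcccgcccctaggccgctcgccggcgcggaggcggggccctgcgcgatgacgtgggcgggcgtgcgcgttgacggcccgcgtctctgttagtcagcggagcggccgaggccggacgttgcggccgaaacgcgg
Mapk9: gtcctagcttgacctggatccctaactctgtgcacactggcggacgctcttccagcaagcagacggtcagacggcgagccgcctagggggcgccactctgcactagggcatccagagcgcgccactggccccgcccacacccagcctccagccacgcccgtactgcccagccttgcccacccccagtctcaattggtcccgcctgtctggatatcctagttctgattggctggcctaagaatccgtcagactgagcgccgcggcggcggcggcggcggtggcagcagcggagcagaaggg
Mapk10: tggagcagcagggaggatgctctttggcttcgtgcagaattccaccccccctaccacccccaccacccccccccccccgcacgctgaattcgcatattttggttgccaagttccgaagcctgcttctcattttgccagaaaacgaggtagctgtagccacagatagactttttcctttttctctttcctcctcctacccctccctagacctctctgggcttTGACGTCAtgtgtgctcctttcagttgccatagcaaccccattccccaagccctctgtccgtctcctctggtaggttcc
The Mapk8 window was 77.7% G and C with 45 CpG dinucleotides, the Mapk9 window 66.7% with 23 and the Mapk10 window 55.3% with 8, against medians of 52.7% and 7 over 32851 windows of the same length. On both strands, the response element occurred 1 time in the Mapk10 window and in 1.79% of all windows. The AP-1 element TGAGTCA, the usual binding sequence of Jun and Fos dimers, was in none of these 3 windows and in 5.2% of all windows. The table also holds a window at another annotated start of Mapk8 (34.3% G and C, 1 CpG) and of Mapk10 (32.7%, 2 CpG), neither with either element, whose sequences are not shown. These are matches of letters, and no binding was measured.

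Before the results, the arrays were compared. Median intensities ran from 99.5 to 116.2 on the cord arrays and from 72.3 to 82.9 on the brain arrays, no 2 arrays held identical values, and gene levels correlated at 0.9294 or higher within a tissue. The log2 change of Nova1, dKO minus WT, was -5.03 in brain and -5.31 in cord (limma's moderated test, adjusted p = 2.44e-13 and 8.94e-14, n = 4 per group), and its dKO levels lay below the floor. Nova2 had a level of 7.91 in dKO brain and 7.32 in dKO cord, both above the floor, and changed by -0.75 in brain (adjusted p = 0.00162) and -1.14 in cord (2.43e-06). In WT cord against WT brain, 15 of 16 Hox genes were higher and 7 of 7 telencephalon genes lower. Of all genes, 60.4% were called in that comparison, 39.8% as lower. The telencephalon score of brain arrays ran from 8.38 to 9.65 in dKO and from 7.44 to 9.68 in WT, and both arrays of number 3 were the lowest of their group. Skeletal muscle genes were bright on some cord arrays, with scores from 7.37 to 9.16 in dKO cord and from 7.68 to 9.83 in WT cord; dKO 2 and 4 and WT 1 and 4 were the highest. In cord, 6 of 7 astrocyte genes and 4 of 8 microglia genes were lower in dKO, with mean scores of 9.68 to 10.07 in dKO and 10.20 to 10.63 in WT for astrocytes, and 7.51 to 7.79 in dKO and 7.90 to 8.43 in WT for microglia. Of 9 pan-neuronal genes, 1 was lower and none higher in dKO cord. The share of all genes called lower in dKO cord was 4.55%. The scores are bulk levels, in which fewer cells of a type and less RNA per cell cannot be told apart.

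The first comparison asked whether the use of single probe sets of the JNK genes changes when both Nova genes are lost. It was read from the exon index, the log2 value of a probe set minus the gene level on that array, where the level is the median over the probe sets of the gene above the floor. In dKO brain, 2 of the 64 JNK probe sets changed relative to their gene, both in Mapk9, 1 up and 1 down. In dKO cord, 1 changed, and it was the Mapk9 probe set that rose in brain. Over all 193126 probe sets with an index, 0.15% were called in brain and 0.388% in cord. None of the 14 Mapk8 and none of the 27 Mapk10 probe sets passed in either tissue.

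Mapk9 probe set 5462265 was the one that rose in both tissues. Its log2 values were 11.68, 11.68, 11.88 and 11.77 in dKO brain, against 10.88, 10.96, 10.78 and 10.80 in WT brain. In dKO cord they were 11.51, 11.63, 11.44 and 11.53, against 10.50, 10.43, 10.17 and 10.36 in WT cord. Every dKO array was above every WT array of its tissue, as for 1.94% of all probe sets in brain and 3.73% in cord, and the lowest dKO value over both tissues was above the highest WT value. The value of the probe set itself was 1.87-fold higher in dKO brain (log2 change 0.90, SE 0.0994, adjusted p = 9.21e-05, limma) and 2.24-fold higher in dKO cord (1.16, adjusted p = 5.11e-06), where 0.334% and 3.6% of all probe set values passed in these tissues. Relative to its gene it rose by 1.04 in brain (SE 0.131, 95% interval 0.76 to 1.32, adjusted p = 0.00104) and by 1.76 in cord (1.49 to 2.04, adjusted p = 4.08e-06). It ranked 119 in brain and 20 in cord by p among the 193126 probe sets. The call held without each of the 16 arrays in turn, with adjusted p of at most 0.00665 in brain and 4.84e-05 in cord.

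Mapk9 probe set 5252115 was the one that fell. Its log2 values were 6.79, 7.29, 7.20 and 7.20 in dKO brain, against 8.61, 8.80, 8.87 and 8.95 in WT brain. In dKO cord they were 7.86, 7.25, 7.65 and 7.94, against 9.68, 8.31, 9.27 and 9.29 in WT cord. All dKO arrays were below all WT arrays of the tissue, as for 1.85% of all probe sets in brain and 6.23% in cord, and the dKO brain values lay close to the floor, so that the fold change there is compressed. The value was 3.22-fold lower in dKO brain (log2 change -1.69, SE 0.226, adjusted p = 0.000823, limma) and 2.76-fold lower in dKO cord (-1.47, adjusted p = 0.00151). Relative to its gene it fell by 1.55 in brain (SE 0.27, adjusted p = 0.0248). In cord the index change was -0.87 with an adjusted p of 0.208. The cord index was called with the level taken as the mean over probe sets (-1.14, adjusted p = 0.0191). It was also called in 1 of 16 fits without 1 array, that without WT cord 2 (adjusted p = 0.0143). The brain call on the index was lost in 7 of 16 fits without 1 array, where adjusted p reached 0.118: without any 1 of the 4 WT brain arrays, or without dKO brain 1, 3 or 4. Its index ranked 245 by p in brain and 5079 in cord.

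**Figure D1:**
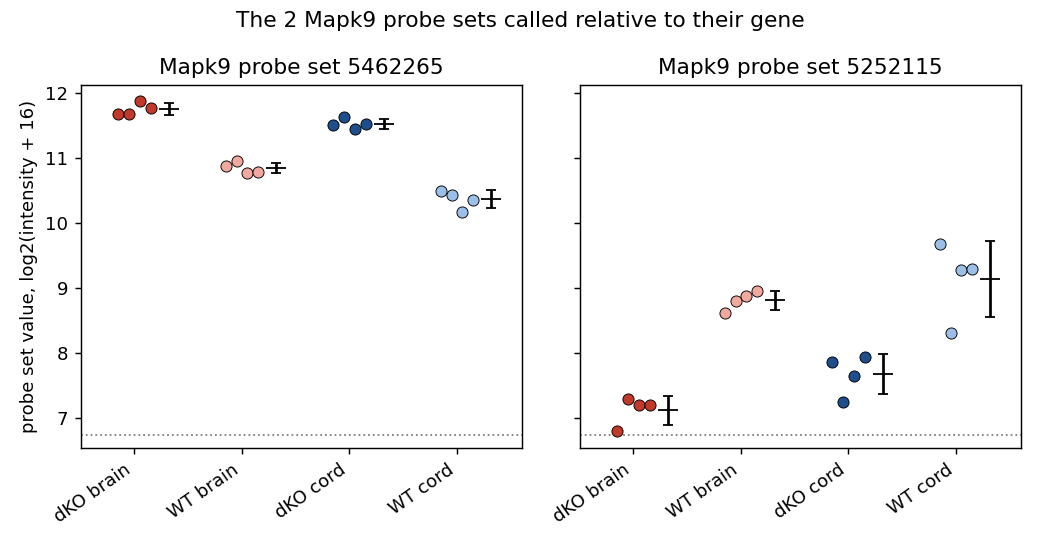
Values of the 2 Mapk9 probe sets on the log2(intensity + 16) scale in the 4 groups, with points for single arrays, bars for mean ± SD (n = 4) and a dotted line at the floor of 6.73. Probe set 5462265 is above its WT values on every dKO array, and 5252115 below them, in both tissues.

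The 2 probe sets moved in opposite directions on the same arrays, and their difference needs no gene level. The log2 value of 5462265 minus that of 5252115 averaged 4.63 ± 0.207 in dKO brain and 2.04 ± 0.202 in WT brain (SD, n = 4 each). In cord it averaged 3.86 ± 0.365 in dKO and 1.23 ± 0.605 in WT. The change of this difference was 2.59 in brain and 2.63 in cord, given as a description because the pair was chosen by its calls. The difference of the index changes, cord minus brain, was 0.72 for 5462265, whose rise was the larger in cord, and 0.68 for 5252115, whose fall was the smaller in cord. Neither passed (adjusted p = 0.661 and 0.883, limma). Both differences contain that of the gene level subtracted, which was -0.46 (adjusted p = 0.503, limma). The values themselves changed by 0.90 in brain and 1.16 in cord for 5462265, and by -1.69 and -1.47 for 5252115. Among all 64 JNK probe sets, none passed the test of the difference between the tissues, where 0.000518% of all probe sets passed. An unadjusted p under 0.05 was held by 7 of the 64, and by 10955 of all 193126 probe sets.

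None of the other 21 Mapk9 probe sets passed on the index. Their changes ran from -0.28 to 0.21 in brain and from -0.03 to 0.91 in cord. In cord the change was positive at 20 of the 21, and at 4 of them every dKO array was above every WT array, which held for 3.16% of all probe sets. The gene level subtracted there fell by 0.60, more than the median value change of the 23 probe sets (-0.39). A positive index change in cord therefore need not mean a higher value. The 0.91 was that of probe set 4651060 (adjusted p = 0.0857), which was dim, averaging 7.58 ± 0.0302 in dKO cord and 7.27 ± 0.434 in WT cord. The values themselves were lower in dKO at 19 of the 21 in brain and at 20 of the 21 in cord. Probe sets of a gene on the same arrays are not independent, so these counts are a description. The Mapk9 level in brain did not pass, as given below. Over all 23 Mapk9 probe sets in cord, 5 values changed, 1 up and 4 down, against the 3.6% of all probe sets. Beside the pair above, the falls were those of 5215465 (-0.63, adjusted p = 0.00947), 5316228 (-0.53, 0.0369) and 5189201 (-0.45, 0.0242). Those 3 were named after their values were seen.

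**Figure D2:**
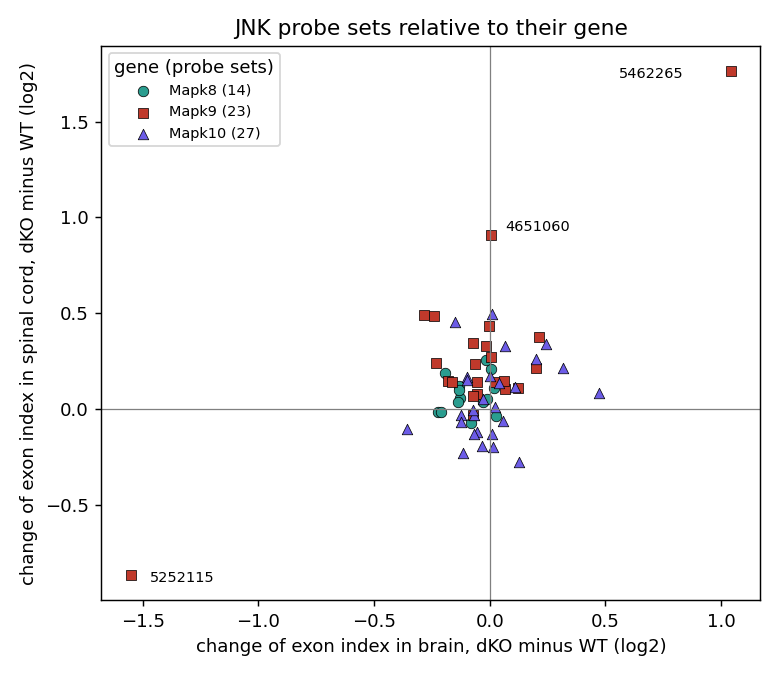
Change of the exon index, dKO minus WT, in brain (horizontal) and spinal cord (vertical) for the 64 JNK probe sets, in log2 units. Mapk9 probe sets 5462265 and 5252115 lie apart from the rest at opposite corners, and 4651060 is high in cord at 0.91, which did not pass.

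In Mapk8, index changes ran from -0.22 to 0.03 in brain and from -0.07 to 0.25 in cord. The largest in brain was that of probe set 4564749, whose log2 values averaged 9.05 ± 0.205 in dKO brain and 9.13 ± 0.481 in WT brain. The next was 4938167, with 10.03 ± 0.294 in dKO brain and 10.09 ± 0.263 in WT brain. In cord, 4983298 averaged 10.78 ± 0.15 in dKO and 10.52 ± 0.149 in WT (index change 0.25, adjusted p = 0.274), and 4475670 averaged 10.69 ± 0.17 in dKO and 10.49 ± 0.275 in WT (0.21, 0.322). Both groups overlapped in value at each of these 4 probe sets. On the index, every dKO cord array was above every WT cord array at 4475670, as for 3.16% of all probe sets.

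In Mapk10, index changes ran from -0.36 to 0.47 in brain and from -0.28 to 0.50 in cord. The 0.47 in brain came from probe set 5315472, which averaged 6.53 ± 0.0796 in dKO brain and 6.08 ± 1.09 in WT brain, both below the floor, and it turned to -0.06 without WT brain 1. Probe set 4466322 averaged 8.64 ± 0.268 in dKO brain and 9.02 ± 0.406 in WT brain (index change -0.36, adjusted p = 1). In cord the largest changes were those of 4360606 (0.50, adjusted p = 0.557) and 5080291 (0.45, 0.499). The first averaged 8.03 ± 0.202 in dKO cord and 7.68 ± 0.38 in WT cord, the second 7.55 ± 0.204 in dKO cord and 7.25 ± 0.428 in WT cord.

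The next comparison asked whether the level of each JNK gene changes with the loss of Nova. In dKO cord Mapk9 was lower by 0.60 on the log2 scale, or 1.52-fold (SE 0.124, 95% interval -0.86 to -0.34, adjusted p = 0.00652, limma), and no other change of a JNK gene level between dKO and WT passed. Of all genes, 5.63% were called in cord, 4.55% as lower, and 0.268% in brain, where 776 genes (5.33%) but none of the JNK genes had an unadjusted p under 0.05. The median change of all genes was 0.02 in brain and -0.03 in cord.

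Mapk9 levels were 9.69, 9.65, 9.65 and 9.45 in dKO cord, against 10.48, 10.38, 10.03 and 9.93 in WT cord. Every dKO cord array was below every WT cord array, which held for 7.62% of all genes. The change ranked 240 of 14570 genes by p. The median change of the values of its 23 probe sets was smaller, at -0.39, and with the level taken as the mean over probe sets the fall was -0.33 (adjusted p = 0.0457). The fall of the gene level was the same without both changed probe sets, at -0.60, since the median over the gene did not move. The fall ran from -0.69 to -0.51 in the fits without 1 array, all of them called. With a floor at the 75th percentile of probe sets it was -0.27 (adjusted p = 0.167), and without the 4 muscle-rich cord arrays -0.54 (0.144). The astrocyte and microglia scores given above were lower in the same dKO cords, and their part in this result was not tested.

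Mapk9 levels in brain were 10.07, 9.85, 9.88 and 10.04 in dKO, against 10.01, 9.99, 10.37 and 10.02 in WT. The groups overlapped, and WT brain 3 lay above the rest. The change in brain was -0.14 (SE 0.124, 95% interval -0.40 to 0.12, adjusted p = 1). The change in cord was lower than that in brain by 0.46 (SE 0.175, interval -0.83 to -0.09), which did not pass (adjusted p = 0.503), and in that test none of the 14570 genes passed while 1166 (8%) had an unadjusted p under 0.05.

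Mapk8 levels were 10.93, 10.98, 10.70 and 10.82 in dKO brain, against 10.79, 10.94, 10.32 and 10.80 in WT brain. In cord they were 10.05, 9.89, 9.74 and 9.73 in dKO, against 10.13, 9.97, 9.74 and 9.57 in WT. The genotypes overlapped in both tissues. The change was 0.14 in brain (95% interval -0.14 to 0.43, adjusted p = 1) and 0.0009 in cord (-0.29 to 0.29, adjusted p = 0.998), and their difference was -0.14 (adjusted p = 0.91).

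Mapk10 levels were 10.16, 10.15, 10.14 and 10.16 in dKO brain, against 10.19, 10.21, 10.11 and 10.20 in WT brain. In cord they were 9.59, 9.54, 9.33 and 9.43 in dKO, against 9.87, 9.40, 9.70 and 9.53 in WT. The genotypes overlapped in both tissues, and the dKO brain arrays spread least. The change was -0.03 in brain (95% interval -0.23 to 0.18, adjusted p = 1) and -0.15 in cord (-0.36 to 0.06, adjusted p = 0.433), and their difference was -0.13 (adjusted p = 0.876).

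**Figure D3:**
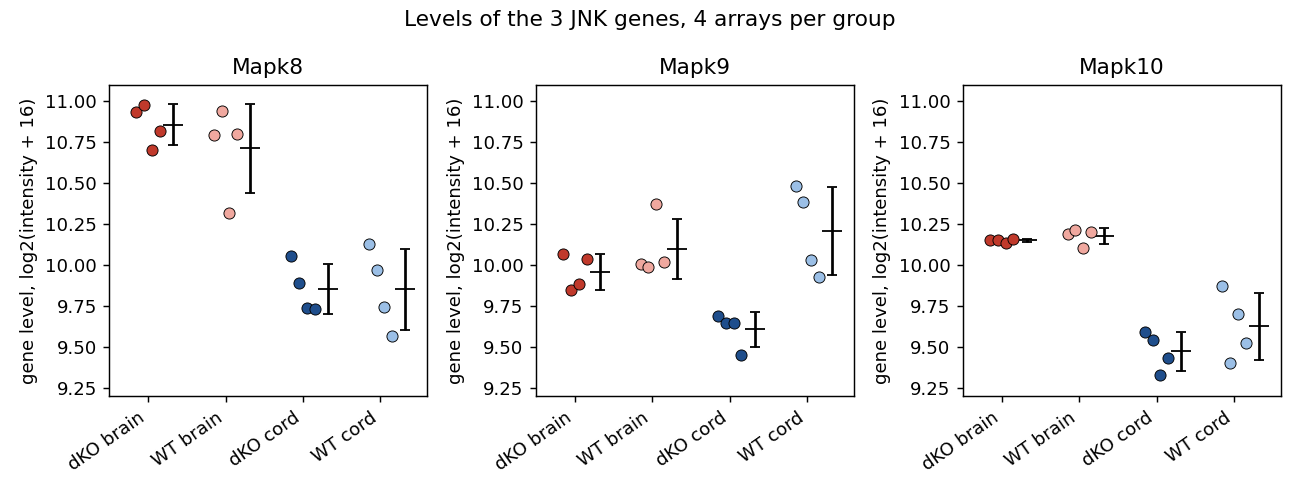
Gene levels of Mapk8, Mapk9 and Mapk10 on the log2(intensity + 16) scale, with 1 point per array and bars for mean ± SD (n = 4 per group). Mapk8 and Mapk10 are lower in cord than in brain in both genotypes, and Mapk9 is lowest in dKO cord.

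A further comparison set spinal cord against brain within each genotype. Mapk8 was lower in cord by 1.01 in dKO (2.01-fold, adjusted p = 1.09e-05, limma) and by 0.86 in WT (1.82-fold, adjusted p = 5.1e-05). Mapk10 was lower in cord by 0.68 in dKO (1.6-fold, adjusted p = 2.07e-05) and by 0.55 in WT (1.47-fold, 0.000158). All cord arrays were below all brain arrays of the genotype for both genes, as for 46.3% of genes in dKO and 26.3% in WT. Such calls were common, since 66.4% of genes passed in dKO and 60.4% in WT, 47.8% and 39.8% as lower in cord. The median change of all genes between the tissues was -0.24 in dKO and -0.16 in WT. Relative to that median, Mapk8 was lower by 0.76 in dKO and 0.71 in WT, and Mapk10 by 0.43 in dKO and 0.40 in WT. Without a floor the fall of Mapk10 in WT was 0.31 (adjusted p = 0.0581), and as the mean over its probe sets 0.14 (0.169).

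Mapk9 was lower in cord than in brain by 0.35 in dKO (1.28-fold, adjusted p = 0.018, limma), and in WT the difference was 0.11 (adjusted p = 0.458). Relative to the median of all genes the dKO difference was -0.11. With quantile normalization between the arrays it was -0.11 (adjusted p = 0.442), and the WT difference was then 0.34 with an adjusted p of 0.0212, higher in cord. The mean over probe sets gave -0.11 in dKO (adjusted p = 0.299), and the fit without the 4 muscle-rich cord arrays -0.29 (0.0828). The dKO call was also lost without dKO brain 1 (adjusted p = 0.0528) or dKO cord 4 (0.0612).

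The order of the groups differed between the genes. Mapk8 averaged 10.86 ± 0.124 in dKO brain and 10.71 ± 0.271 in WT brain, then 9.85 ± 0.153 in dKO cord and 9.85 ± 0.247 in WT cord. Mapk10 averaged 10.15 ± 0.00922 in dKO brain and 10.18 ± 0.0475 in WT brain, then 9.47 ± 0.119 in dKO cord and 9.62 ± 0.207 in WT cord. For both genes the brain groups overlapped each other, as did the cord groups, with a gap between the tissues. Mapk9 was lowest in dKO cord (9.61 ± 0.107), followed by dKO brain (9.96 ± 0.11), WT brain (10.10 ± 0.185) and WT cord (10.21 ± 0.268). Of these neighbours only dKO cord and dKO brain differed by the test.

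At the level of probe sets, Mapk8 was lower in cord across the whole gene. All 14 values were lower in cord in both genotypes, and 13 passed in each, against 39.7% of all probe sets called lower in dKO and 34.1% in WT. Mapk9 had no common direction in WT, with 12 values higher and 11 lower in cord, of which 1 and 2 passed. Mapk9 probe set 5462265 was lower in WT cord than in WT brain, by 0.49 in value (adjusted p = 0.000925) and by 0.60 relative to its gene (adjusted p = 0.00483). In dKO its value changed by -0.22 between the tissues (adjusted p = 0.0665).

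The direction of Mapk10 probe sets in WT differed with their brightness. In WT, 18 of the 27 Mapk10 values were called lower in cord and 6 higher, against 34.1% and 14.8% of all probe sets. Among the 22 with a mean of 7.5 or more, 18 were called lower and 1 higher. Of the 6, 4 averaged below the floor in WT brain and were kept through higher values in other groups, so a rise in cord was built into their choice and the count supports nothing. The 6 included all 5 Mapk10 probe sets with a mean under 7.5. Dim probe sets of all genes were also called higher in WT cord more often, at 24.4% under 7.5 against 12.6% of the brighter ones. Probe set 5006161 was the brightest of the 6, and it was chosen after its values were seen. Its log2 values were 8.97, 8.73, 9.09 and 8.66 in dKO cord, against 8.07, 7.67, 7.90 and 7.77 in dKO brain. In WT they were 9.65, 8.60, 9.08 and 9.26 in cord, against 7.26, 7.90, 8.46 and 7.86 in brain. The cord arrays were above the brain arrays in both genotypes, as for 13.8% of all probe sets in dKO and 10.2% in WT. The value was higher in cord by 1.01 in dKO (adjusted p = 0.00146) and by 1.28 in WT (adjusted p = 0.000307), opposite to the gene. Relative to the gene it rose by 1.83 in WT (adjusted p = 7.13e-05).

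**Figure D4:**
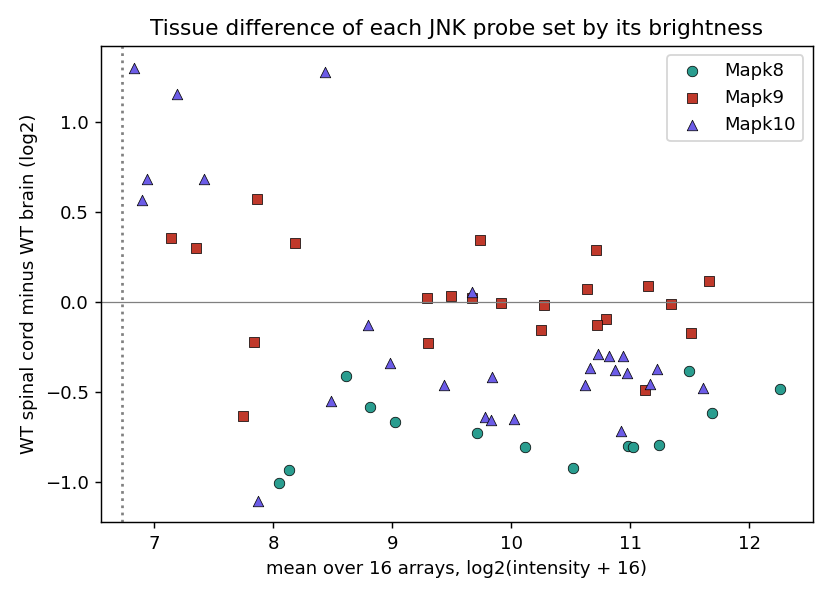
Difference of each JNK probe set between WT spinal cord and WT brain (log2, vertical) against its mean over the 16 arrays on the log2(intensity + 16) scale (horizontal), with the floor of 6.73 dotted. All 14 Mapk8 probe sets lie below 0, most bright Mapk10 probe sets lie below 0, and the 5 dimmest Mapk10 probe sets lie above it.

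The patterns of the genes over the arrays were compared next, as a description. Levels correlated over the 16 arrays at 0.92 between Mapk8 and Mapk10, at 0.22 between Mapk8 and Mapk9 and at 0.36 between Mapk9 and Mapk10. The arrays share tissue, genotype and number, so these values carry no p. The most similar genes outside the family are given next, with predicted clone genes skipped. The genes most like Mapk8 were Prpf4 (Pearson r 0.99), which encodes a spliceosome protein, Dnajc9 (0.99), a cochaperone, and Lyrm4 (0.9891), a factor of iron-sulfur cluster assembly. Those most like Mapk10 were Tmem183a (0.9864), Ephb1 (0.9828), an ephrin receptor, and Drg1 (0.9795), a GTP-binding protein. Those most like Mapk9 were Cckbr (0.9337), a cholecystokinin receptor, Aplp2 (0.9161), a relative of the amyloid precursor protein, and Tcf25 (0.9069). Aplp2 averaged 10.89 ± 0.057 in dKO cord and 11.34 ± 0.117 in WT cord, and 11.05 ± 0.0591 in dKO brain and 11.19 ± 0.147 in WT brain. Cckbr was dim, at 6.86 ± 0.184 in dKO cord and 7.55 ± 0.155 in WT cord.

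The rest of the JNK pathway was followed in 72 genes listed by role, of which 67 had a level. In brain 1 changed, and it fell. In cord 5 changed, 2 up and 3 down, against the 5.63% of all genes given above. The median change over the list was 0.03 in brain and -0.03 in cord, near the medians of all genes. Without the 4 muscle-rich cord arrays none of the 67 passed in cord, with only 2 arrays left in each cord group.

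Of the kinases upstream of JNK, Map2k4 and Map2k7, which encode MKK4 and MKK7, changed by -0.29 each in cord and did not pass (adjusted p = 0.14 and 0.155, limma). Map2k4 was called as lower with the 75th-percentile floor (-0.48, adjusted p = 0.0127) and as the mean over probe sets (-0.33, 0.0231), and Map2k7 with quantile normalization (-0.34, 0.023). Among 18 kinases of the tier above them, 1 fell in cord and none changed in brain. It was Map3k9, the mixed lineage kinase MLK1, with levels of 8.49, 8.52, 8.47 and 8.39 in dKO cord, against 9.18, 9.10, 8.69 and 8.80 in WT cord. All dKO cord arrays were below all WT ones, as for 7.62% of genes (-0.48, SE 0.115, adjusted p = 0.0175). The call was lost without dKO cord 3 or 4 or WT cord 1 or 2, where adjusted p reached 0.0662. In brain it changed by -0.32 (adjusted p = 0.635). Map3k10, the mixed lineage kinase MLK2, changed by -0.32 in cord (adjusted p = 0.0625) and Taok2 by -0.21 (0.201).

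Of 9 scaffold genes, Mapk8ip1, which encodes JIP1, fell in cord. Its levels were 10.04, 9.70, 9.60 and 9.76 in dKO cord, against 10.27, 10.30, 10.31 and 9.98 in WT cord, where dKO 1 lay above WT 4. The change was -0.44 (SE 0.108, adjusted p = 0.0204). It was not called with the 75th-percentile floor (-0.23, adjusted p = 0.199) or with the compared arrays alone (0.0579), nor without dKO cord 2, 3 or 4 or WT cord 1, 2 or 3, where adjusted p reached 0.0842. In brain the change was -0.06 (adjusted p = 1). Mapk8ip2, for JIP2, changed by -0.23 in cord and Sh3rf1, for the scaffold POSH, by -0.24, and neither passed. None of 9 phosphatases passed in either tissue. The lowest adjusted p among them was that of Dusp4 in cord (0.39, adjusted p = 0.0986), with Dusp1 at -0.34 (0.138) and Dusp10 at -0.43 (0.257).

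None of the 6 measured nuclear substrates passed. Jun, the transcription factor after which the kinases are named, changed by -0.30 in cord (adjusted p = 0.126), Nfatc4 by 0.27 (0.15) and Atf2 by 0.20 (0.299). Of the 5 mitochondrial and turnover partners none passed. Bid, a death-promoting member of the BCL2 family, changed by -0.27 in cord (0.123), the ubiquitin ligase gene Itch by 0.24 (0.176) and the survival gene Bcl2l1 by 0.34 in brain (0.342). Of the 9 other MAP kinases none passed, with Mapk6 at -0.28 in cord (0.0637), Nlk at 0.21 (0.23) and Mapk4 at -0.16 (0.553).

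Cytoskeletal substrates held the other calls, 1 of 9 in brain and 3 of 9 in cord, against 0.268% and 5.63% of all genes. Mtap2, which encodes the dendritic protein MAP2, averaged 10.33 ± 0.104 in dKO brain and 11.33 ± 0.0492 in WT brain, and 10.36 ± 0.056 in dKO cord and 11.26 ± 0.315 in WT cord. It fell by 1.00 in brain (adjusted p = 0.000116, limma) and by 0.89 in cord (0.000126), but as the mean over its probe sets it changed by -0.31 (0.329) and -0.27 (0.0974). Dcx, for the microtubule protein doublecortin of migrating neurons, had levels of 11.28, 11.41, 11.32 and 11.45 in dKO cord, against 10.87, 10.54, 10.90 and 10.87 in WT cord. It rose in cord by 0.57 (SE 0.0953, adjusted p = 0.00129), with no overlap of the groups (as for 3.9% of genes in that direction), and changed by 0.07 in brain (adjusted p = 1). Stmn1, for the tubulin-binding protein stathmin, averaged 12.12 ± 0.152 in dKO cord and 11.75 ± 0.158 in WT cord. Its rise of 0.37 passed narrowly (adjusted p = 0.0492) and did not pass in 12 of 16 fits without 1 array.

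**Figure D5:**
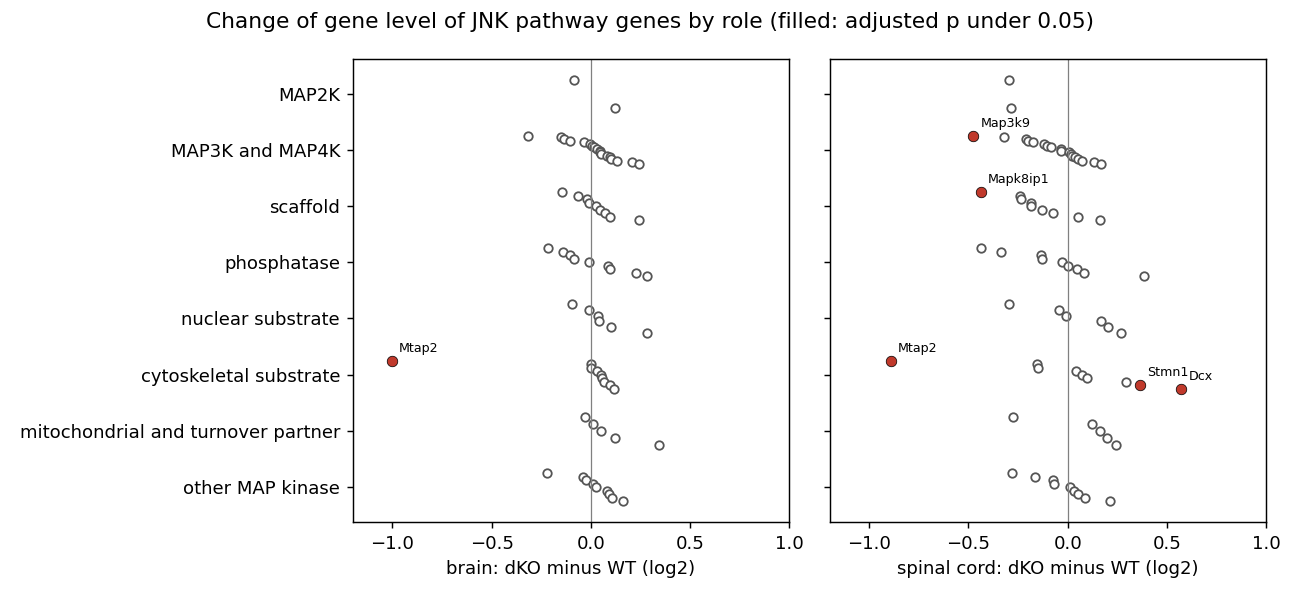
Change of gene level, dKO minus WT (log2), in brain (left) and spinal cord (right) for 67 JNK pathway genes by role, 1 point per gene, filled where the adjusted p was under 0.05. Mtap2 is the only filled point in brain, and cord has 5, with Mtap2, Map3k9 and Mapk8ip1 lower and Dcx and Stmn1 higher.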

How the data were processed

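Total RNA of brain and spinal cord from CD1 embryos was measured on 16 Affymetrix mouse exon arrays. The authors deposited 1 intensity value per probe set, on a linear scale. The tools were Affymetrix Power Tools with PLIER and the build was mm8, per the submitters' processing notes, and the sources used here name no version or setting. The platform annotation gave 303629 probe sets 1 gene symbol, 5892 several and 316013 none. The design text calls the arrays of a group biological replicates, and their number limits the precision.

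From the deposited values, log2(intensity + 16) was taken, which understates changes of dim probe sets. A gene level is the median over at least 3 probe sets above the floor, and an exon index needs at least 5. Group means were fitted over 16 arrays in limma 3.58.1 (lmFit, eBayes; R 4.3.3, data.table version 1.17.8), two-sided, with Benjamini-Hochberg adjustment at 0.05 over all features of a comparison. The index was fitted for 193126 probe sets of 12340 genes. The scripts were tested on simulated data.

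The members, gene lists, tests and alternatives were chosen with earlier results of these data known. Named were probe sets called on the index and the 2 with the largest change per gene and tissue. Also named were up to 3 pathway genes per role, all called ones, and the 3 genes most correlated with each member. That ranking skipped the members and predicted clone genes (symbols ending in Rik, or Gm, LOC or BC followed by digits). Marker scores are means of gene levels over pan-neuronal, telencephalon, Hox, skeletal muscle, astrocyte and microglia lists. Deviations of same-numbered dKO and WT arrays from their group means correlated at 0.2117 to 0.4068 in brain, over 0.1 for every pair, and at -0.1202 to -0.003 in cord, so the numbers, taken from the sample titles, pair the brain arrays only. Alternatives were other pseudocounts, floors, means for medians, quantile normalization, the block, fits of the compared groups alone and left-out arrays.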

Additional observations from a re-analysis of the deposited data

Results flagged for a closer look

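Among 56 groups of 4 arrays checked, 1 held an array far from the others, where chance gives about 1 in 20. The Mapk9 level was 10.37 on WT brain 3 and 9.99 to 10.02 on the other WT brain arrays, a gap of 0.918 of the range of the group. The same array had the lowest Mapk8 level of its group, 10.32, and the lowest telencephalon score, 7.44. Without WT brain 3, no call of a JNK gene level changed in brain, where the Mapk9 change was -0.05.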

How the results depend on the processing

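The rise of Mapk9 probe set 5462265 held in both tissues under every alternative run. On the index, 2 JNK probe sets passed in brain; the count was 1 with the 75th-percentile floor, without a floor, with quantile normalization, without both brain arrays of number 3, and 1 to 2 in the fits without 1 array. In cord 1 passed. The count was 2 with means over probe sets, where 5252115 was added, or a pseudocount of 64, where 4651060 was added. It was 5 on the value itself (an alternative added after seeing the data), and 1 to 2 without 1 array. Without 1 array, the Mapk8 change in cord ran from -0.094 to 0.093, the Mapk9 difference between cord and brain in dKO from -0.39 to -0.30, the pathway count in cord from 2 to 6, and the brain index of Mapk10 probe set 5315472 from -0.061 to 0.73. The Mapk9 fall in cord was -0.27 (adjusted p = 0.167, limma) with the 75th-percentile floor and -0.54 (0.144) without the 4 muscle-rich cord arrays. With means over probe sets, the difference of the Mapk8 changes was 0.018, Mapk10 in WT cord against brain -0.14, Mapk9 in dKO cord against brain -0.11 and the pathway count in brain 0. Mapk10 in WT cord against brain was -0.31 without a floor, and Mapk9 there -0.15 with the 75th-percentile floor and 0.34 with quantile normalization. Mapk9 in dKO cord against brain was -0.11 with quantile normalization and -0.29 without the muscle-rich arrays. The median of all genes subtracted, also added later, left -0.40 for Mapk10 in WT, and -0.76, -0.11 and -0.43 for Mapk8, Mapk9 and Mapk10 in dKO. The pathway count in cord was 3 with the compared arrays alone, 13 with quantile normalization and 0 without the muscle-rich arrays. Mapk8ip1 in brain changed by 0.034 with the 75th-percentile floor and 0.0043 with means, and Nfatc4 in cord by -0.018 with that floor and -0.0078 without one. The cause was not tested for any of these changes, beyond the fewer arrays in fits that leave some out. With the replicate block no call of a JNK gene or probe set changed: Mapk9 in cord had an adjusted p of 0.0057, and the brain index of 5462265 and 5252115 had 0.0202 and 0.0048. Of the pathway genes named, Map3k10 (0.0347) and Dusp4 (0.0489) in cord became called with it, and the others kept their side of the threshold. The block covered the cord arrays too, which the numbers did not pair, so its values in cord have no pairing behind them. No blocked fit was made between the tissues. Whether brain and cord arrays of the same number come from the same embryo was not checked, and the tests between tissues treat them as independent. Dim probe sets near the floor limit what can be read from their folds.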
